A study of Mus musculus with 2 samples.

Results

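The 6 Wnt ligands described here are Wnt2, Wnt2b, Wnt4, Wnt5a, Wnt7b and Wnt11, the family members best known from the embryonic mouse lung. They were taken as probe sets annotated with exactly 1 gene symbol, and each gene was represented by its probe set with the highest mean of both arrays. This gave 6 genes of 19938 in all, read by 7 probe sets of 35557. The rule that chose them uses no threshold on a difference, although earlier results on some of them were known.

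RNA came from whole lungs of mouse embryos at E13.5, a stage of active airway branching. The tested lungs carried the genotype label Etv4;5 knockout, naming a pair of ETS transcription factors, Etv4 and Etv5, that FGF signalling induces in distal lung epithelium, and the others were wild type. One title abbreviates the knockout as CKO, and neither a Cre line, the cells it would act in nor the strain is given in the sources used here. RNA from 3 samples per genotype was combined in equal parts, so each genotype is 1 pool read on 1 Affymetrix array. There was no replicate, and no test across samples, SD or p-value could be given. Every difference below is the knockout pool minus the wild type pool on the log2 scale and describes these pools alone.

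Wnt proteins are secreted, lipid-modified glycoproteins that bind Frizzled receptors. Some stabilise beta-catenin through the co-receptors Lrp5 and Lrp6, and others act through Ror and Ryk receptors and the planar polarity proteins without beta-catenin. In the mouse lung, Wnt2 and Wnt2b are made by the mesenchyme and together are needed to specify lung endoderm. Wnt5a restrains distal branching. Wnt7b, made by the epithelium, signals to the underlying mesenchyme and promotes its growth and that of vascular smooth muscle. Wnt4, Wnt5a and Wnt11 are grouped here with the mesenchymal ligands. Wnt4 and Wnt11 are also known from other lung cells, and the grouping does not mean that Wnt5a is made by mesenchyme alone. A whole-lung array does not locate a transcript, so these compartments are background and not a measurement.

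Genes are called measured if their higher value reached the median of the array it came from, 7.58 for knockout and 7.60 for wild type. By that rule 11045 genes were measured, among them all 6 ligands. The median difference of measured genes was 0, and the central 95% lay between -0.22 and 0.20. In all 47.0% of them were lower in the knockout pool, 25.7% higher and 27.3% equal, and counts of direction within a list are to be read against these shares. The exactly equal genes are part of this central 95% and of the shares of measured genes given below, and they make that spread narrower. Etv4 stood at 6.96 in the knockout pool and 7.59 in the wild type pool, both under the limit, and Etv5 at 11.28 in the knockout pool and 11.51 in the wild type pool. The deleted parts of these genes are not given, so a probe set outside them would check nothing. Xist, the RNA of the silenced X chromosome, was at 5.74 in the knockout pool and 12.34 in the wild type pool, so the pools differed in sex makeup. None of the ligands lies on the X or Y chromosome or on chromosome 11 or 16, which hold Etv4 and Etv5 (0 of 6).

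The ligands split into a lower set and a set that differed little or was slightly higher. Wnt5a, Wnt2b and Wnt2 were between 1.24-fold and 1.27-fold lower in the knockout pool, whereas Wnt7b, Wnt11 and Wnt4 had somewhat higher values there. At a threshold of 1.2-fold, 3 of the 6 ligands were lower and 0 were higher. That threshold was chosen with earlier values of some Wnt genes known, so this count is a description and not a test. Over all measured genes, 1.53% were lower by that much and 1.39% higher, and without genes of the X and Y chromosomes 1.47% were lower. The median of the ligands was -0.14, a value that falls in the gap between both sets and describes neither. It was -0.31 with the mean over probe sets, where Wnt4 no longer counted as measured, and with a filter at the 75th percentile, which only Wnt2 passed. No ligand reached 1.5-fold or 2-fold in either direction, as was the case for nearly all measured genes (0.335% and 0.0905% did).

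**Figure D1:**
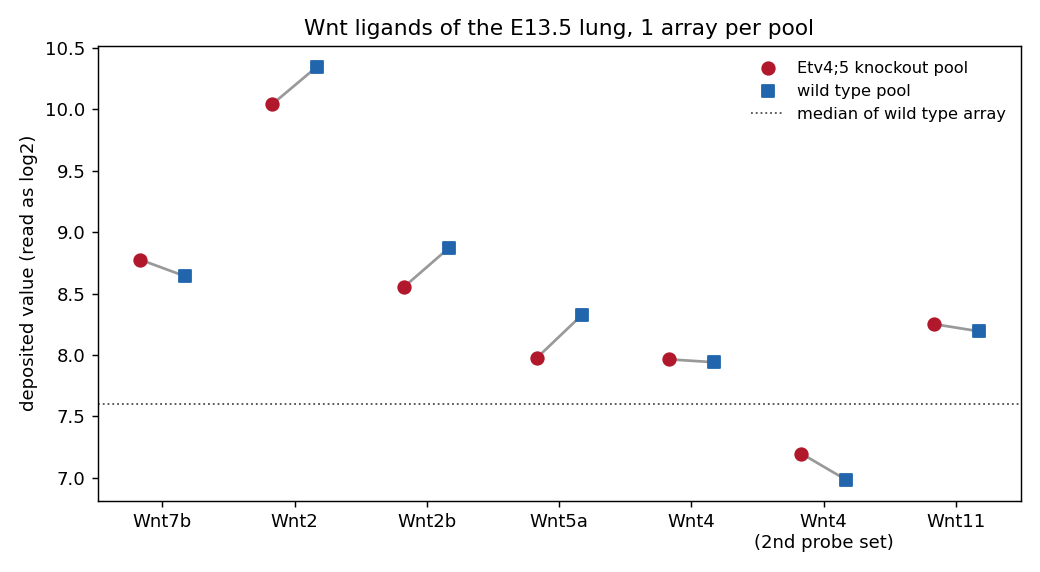
Deposited values, read as log2, of the 7 probe sets of the Wnt ligands, with the knockout pool (red circles) left of the wild type pool (blue squares). Each symbol is 1 array, so no error can be drawn, and the dotted line is the median of the wild type array (7.60). Wnt2, Wnt2b and Wnt5a sit lower in the knockout pool, and the other probe sets sit slightly higher.

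Wnt2, a canonical ligand of the lung mesenchyme that acts upstream of airway smooth muscle development, had a value of 10.04 in the knockout pool and 10.35 in the wild type pool. The difference of -0.31 corresponds to 1.24-fold lower. Only 101 of the measured genes (0.914%) were lower by as much or more. Among the 1000 measured genes closest to Wnt2 in level, 0.9% were, and their central 95% ran from -0.18 to 0.13.

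Wnt2b, its closest relative in the family, had a value of 8.56 in the knockout pool and 8.87 in the wild type pool. The difference of -0.32 (1.25-fold lower) was almost the size of that of Wnt2. It was matched or exceeded in that direction by 93 measured genes (0.842%), and by 0.9% of the 1000 genes nearest in level.

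Wnt5a, which signals mainly without beta-catenin and whose loss or excess in the mouse lung alters branching together with Fgf10 and Shh, showed the largest difference of the 6. It stood at 7.98 in the knockout pool and 8.32 in the wild type pool, a difference of -0.35 (1.27-fold lower). Fewer genes, 72 (0.652%), were lower by as much. Genes near it in level scattered more widely than those near Wnt2, from -0.27 to 0.26 in the central 95%, and 1.6% of them were as low. Wnt5a therefore stood less far out among its neighbours in level than Wnt2 did, although its own difference was larger.

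The promoter windows of Wnt2 and Wnt2b are shown because these related ligands were lower together and because the study removed a pair of ETS factors. Sequences are those of RefSeq, build GRCm38.p6, from 250 bases before to 50 bases after an annotated start. Of the 6 ligands 4 matched that table, with 5 windows, Wnt11 having more than 1 start. Wnt5a, which had the largest difference, and Wnt7b had no window and were not searched. Windows were searched on both strands for an ETS motif (CGGAAG), the PEA3 motif of the Etv4 subfamily (AGGAAG), TCF/LEF (ATCAAAG), T-box (GGTGTG), Gli (GACCACCCA) and the TATA box (TATAAA), and matches are in capitals. The first Wnt11 window is printed beside them as that of a ligand that was not lower. Wnt2 is chr6:18030396-18030695, minus strand, Wnt2b is chr3:104961660-104961959, minus strand, and Wnt11 is chr7:98834862-98835161, plus strand.
Wnt2: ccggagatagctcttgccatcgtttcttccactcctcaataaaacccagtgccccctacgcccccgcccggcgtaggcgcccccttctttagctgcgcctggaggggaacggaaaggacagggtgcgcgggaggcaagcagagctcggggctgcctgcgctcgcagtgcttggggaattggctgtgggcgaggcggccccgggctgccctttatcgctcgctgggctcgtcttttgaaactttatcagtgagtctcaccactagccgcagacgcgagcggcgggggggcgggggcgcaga
Wnt2b: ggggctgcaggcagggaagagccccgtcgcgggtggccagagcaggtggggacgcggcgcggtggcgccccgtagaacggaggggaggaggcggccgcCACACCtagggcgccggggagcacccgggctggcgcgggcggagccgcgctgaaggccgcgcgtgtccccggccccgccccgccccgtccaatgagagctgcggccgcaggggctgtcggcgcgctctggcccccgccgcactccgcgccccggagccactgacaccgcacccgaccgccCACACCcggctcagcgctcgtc
Wnt11: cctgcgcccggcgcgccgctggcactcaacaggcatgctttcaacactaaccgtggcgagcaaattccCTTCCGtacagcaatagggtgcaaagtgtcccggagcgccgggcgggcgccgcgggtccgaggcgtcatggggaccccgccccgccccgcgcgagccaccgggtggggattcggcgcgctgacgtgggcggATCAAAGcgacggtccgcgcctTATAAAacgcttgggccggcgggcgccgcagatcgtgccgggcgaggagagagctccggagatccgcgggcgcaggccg

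The Wnt2 window held 0 of these 6 motifs, as did that of Wnt4. The annotated Wnt2 gene reaches 18032772 on chromosome 6, beyond that window, so the outermost Wnt2 start was not searched. In the Wnt2b window the T-box motif stood on the strand opposite to the gene at -152 and 29, counted from the start site to the first base of the match. The Wnt11 window held CGGAAG on the opposite strand at -182, and ATCAAAG at -51 and TATAAA at -29 on the strand of the gene. Its other window, not printed, held AGGAAG on the opposite strand at -64. These short words are common: of 32851 promoter windows 16.9% held CGGAAG, 35.4% AGGAAG, 19.0% GGTGTG, 13.6% TATAAA and 3.73% ATCAAAG, against 0.253% for GACCACCCA. The windows of the ligands were rich in G and C, 65.7% for Wnt2, 79.7% for Wnt2b, 84.3% for Wnt4 and 71.3% and 59.3% for Wnt11, against a median of 52.7% over all windows. A match here describes letters only, and its absence says nothing of binding outside these windows.

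Wnt7b, the epithelial ligand, had a value of 8.78 in the knockout pool and 8.64 in the wild type pool, a difference of 0.13 (1.10-fold higher). This lay inside the central 95% of the 1000 genes nearest in level (-0.22 to 0.19), and 5.22% of all measured genes were higher by as much. The value is therefore ordinary for these arrays, and its direction differs from those of Wnt2, Wnt2b and Wnt5a.

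Wnt11, a ligand known for its action on cell movements and polarity, stood at 8.25 in the knockout pool and 8.19 in the wild type pool, a difference of 0.06. Wnt4, known for its part in kidney and airway development, was read by a pair of probe sets. The brighter one gave 7.96 in the knockout pool and 7.94 in the wild type pool, a difference of 0.02. The dimmer one gave 7.20 in the knockout pool and 6.98 in the wild type pool, a difference of 0.21, with both values under the array medians, and the mean over both was 0.12. The gap of 0.19 between these differences compares with a 90th percentile of 0.18 over 618 measured genes with a pair of probe sets. Neither probe set of Wnt4 nor that of Wnt11 was lower in the knockout pool, so the ligands grouped as mesenchymal did not move as 1 block.

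Set against the ligands grouped as mesenchymal, the Wnt7b difference exceeded that of Wnt5a by 0.48, of Wnt2b by 0.45 and of Wnt2 by 0.44. It exceeded those of Wnt4 and Wnt11 by only 0.11 and 0.08. Against the mean of all 5, the gap was 0.31. With 1 array per pool these gaps carry no error. Only the larger ones exceed the 0.18 that separates the probe sets of 1 gene at the 90th percentile. That value comes from the same arrays, so it holds no variation between embryos or pools and is no noise limit for these gaps.

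**Figure D2:**
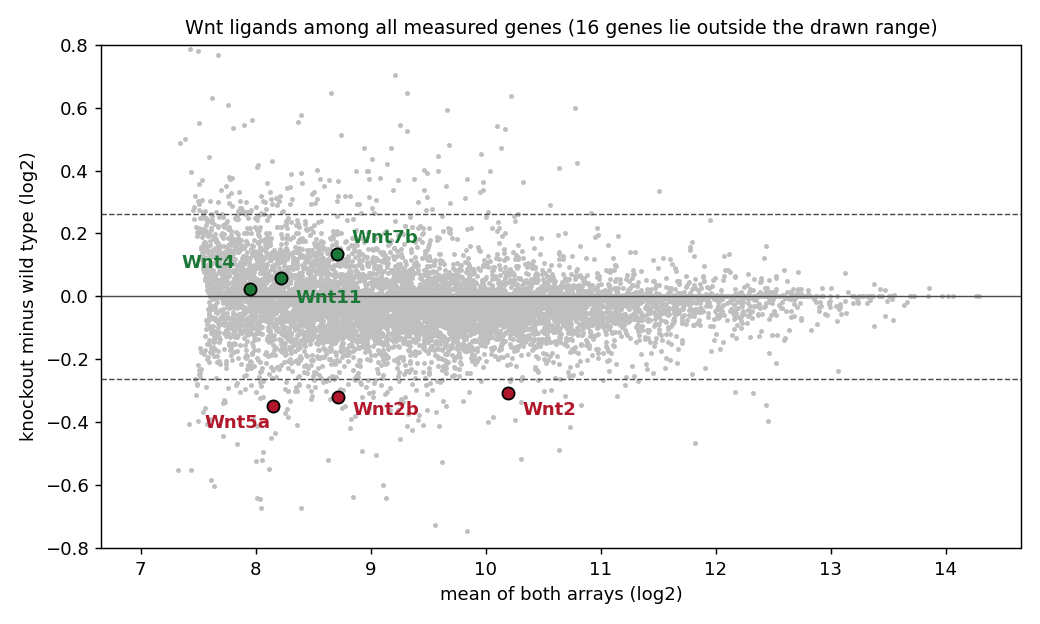
Difference between knockout and wild type pools (log2, vertical axis) against the mean of both arrays (log2, horizontal axis) for the 11045 measured genes in grey, with the 6 ligands named. Dashed lines mark 1.2-fold, and 16 genes beyond 0.8 in either direction lie outside the drawn range. Wnt2, Wnt2b and Wnt5a (red) lie below the lower line, and Wnt4, Wnt7b and Wnt11 (green) lie among the bulk of genes.

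Mesenchyme and smooth muscle markers differed between the pools in the direction of Wnt2, Wnt2b and Wnt5a, and most epithelial markers in that of Wnt7b. Wnt4 (0.02) and Wnt11 (0.06), grouped here as mesenchymal, were above all 11 measured mesenchyme markers and all 8 measured smooth muscle markers. Of 11 measured mesenchyme markers, 11 were lower in the knockout pool, with a median of -0.08, and the summed linear level of the whole list of 12 was 35621 in the knockout pool and 38835 in the wild type pool. Wnt2, Wnt2b and Wnt5a each were lower than 10 of those 11 markers, the exception being the mesenchymal factor Foxf1 (-0.40). Only Foxf1 passed 1.2-fold. Twist1 was the 1 mesenchyme marker under the limit.

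Smooth muscle markers came closer to the lower ligands than mesenchyme markers did. By median the erythroid markers described below came about as close (-0.24). All 8 measured smooth muscle markers were lower, with a median of -0.24. Summed levels for the list of 9 were 16015 in the knockout pool and 17787 in the wild type pool. Past 1.2-fold were Synpo2 (-0.49), Myocd (-0.39) and Cnn1 (-0.31), and Lmod1 was under the limit.

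Epithelial markers went the other way. Of 12 measured, 11 were higher in the knockout pool, with a median of 0.15 and summed levels of 18868 in the knockout pool and 16824 in the wild type pool. Krt18 (0.47), Krt8 (0.33) and Rab25 (0.30) passed 1.2-fold. The Wnt7b difference of 0.13 lay in the middle of this list, with 6 markers above it and 6 below. Fewer cells of a type and less RNA per cell cannot be told apart in whole lung, and the part of cell makeup in the ligands' differences was not tested.

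Among the remaining markers, 4 of 7 measured mesothelial genes were higher and 1 lower (median 0.05), and Msln was under the limit. Of these Krt19 (0.45) alone passed 1.2-fold. The rest, named after their values were seen, were Bnc1 (0.20), Lrrn4 (0.06), Upk1b (0.05) and Upk3b (-0.09), with Wt1 and Aldh1a2 equal on both arrays. Of 8 endothelial markers 6 were lower and 0 higher, none past 1.2-fold (median -0.01, and as high as 0.0032 under another scaling, Pecam1 -0.08 and Tek -0.08). The 4 measured erythroid markers were lower (median -0.24, Slc4a1 -0.26 and Hba-x -0.25), as were the 4 measured leukocyte markers (median -0.13, Mrc1 -0.17 and Csf1r -0.15). Their part in the result was not tested either.

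The other 13 Wnt genes were mostly dim. Wnt5b, the paralogue of Wnt5a, was the only one measured, at 7.86 in the knockout pool and 7.82 in the wild type pool, a difference of 0.04 beside -0.35 for Wnt5a. The other 12 (Wnt1, Wnt3, Wnt3a, Wnt6, Wnt7a, Wnt8a, Wnt8b, Wnt9a, Wnt9b, Wnt10a, Wnt10b and Wnt16) did not exceed 7.57 on the knockout array or 7.32 on the wild type array. Of these 6 were higher, 3 lower and 3 exactly equal on both arrays, with differences from -0.07 (Wnt1) to 0.25 (Wnt10a), none past 1.2-fold. Such equality was common, at 28.2% of all probe sets, and the sources used here do not explain it.

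Genes for making and releasing Wnt proteins included 1 gene with a larger difference than any of the 6 ligands. Porcn, the acyltransferase that attaches the lipid every Wnt needs for secretion, was at 9.41 in the knockout pool and 8.94 in the wild type pool, a difference of 0.47 (1.39-fold higher). Porcn is X-linked and the pools differed in Xist, and the part of that in its value was not tested. Tpbg, a membrane protein that inhibits Wnt/beta-catenin signalling in zebrafish, differed by -0.33. Of 8 measured genes on this list 1 was higher and 6 lower (median -0.05). Wls, the carrier of Wnt proteins to the cell surface, differed by -0.0024 (named after its value was seen).

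Receptors and co-receptors showed 5 higher, 9 lower and 3 equal of 17 measured, with a median of -0.0022 that turned positive under other scalings (up to 0.02) and so has no direction. Fzd7, a Frizzled receptor, alone passed 1.2-fold, at 10.35 in the knockout pool and 10.65 in the wild type pool (-0.30). The following were named after their values were seen, for their known pairing with a ligand. Ror2, a receptor of Wnt5a, differed by 0.04. Ror1 and Ryk, of the receptor kinds named above for ligands acting without beta-catenin, differed by -0.03 and -0.06. Reck and Adgra2, which together recognise Wnt7a and Wnt7b on endothelial cells, differed by -0.12 and -0.16, opposite in sign to Wnt7b. Their values and that of Wnt7b lay inside the central 95% of measured genes (-0.22 to 0.20). The lower value of Wnt5a was thus accompanied by small differences of Ror1, Ror2 and Ryk without a common direction.

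On the R-spondin axis, which sets how many Frizzled receptors stay at the surface, 3 of 7 measured genes were higher and 3 lower (median 0). The R-spondin receptors Lgr5 (0.23) and Lgr4 (-0.18) differed in opposite directions, both within 1.2-fold. Secreted antagonists had 4 measured members of 13, of which 3 were lower and 1 higher (median -0.08). Sfrp1, which binds Wnt proteins outside the cell, differed by -0.26, at 10.17 in the knockout pool and 10.44 in the wild type pool. It passed the threshold only narrowly and no longer did so under 3 other scalings, where it came to as little as -0.24. The median of the antagonists was above 0 with equal medians and with quantile scaling (0.01 and 0.02), so it has no direction.

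Genes that carry the signal inside the cell are considered next. Of 15 measured beta-catenin transduction genes 9 were exactly equal on both arrays, where 27.3% of all measured genes were. The sources used here do not explain such equality, so it is not read as a lack of change. Of the rest 3 were higher and 3 lower, with the furthest, Dvl3 and Bcl9, at -0.10 and -0.08. Of 10 measured planar polarity genes 6 were lower and 3 higher (median -0.03). Prickle1, a core polarity protein, differed by -0.28 and alone passed 1.2-fold.

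Beta-catenin response genes, which report canonical signalling, had 3 higher and 5 lower of 8 measured (median -0.02, close to 0 with either sign under other settings), none past 1.2-fold. Axin2, a feedback inhibitor induced in most tissues by this pathway, was at 9.22 in the knockout pool and 9.36 in the wild type pool, a difference of -0.14, and Lgr5 gave 0.23. In these pools no response gene reached 1.2-fold beside the lower values of Wnt2 and Wnt2b. Over all measured genes only 1.53% were lower and 1.39% higher by that much, so a count of 0 among 8 is ordinary.

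Over the pathway lists described so far, without the 6 ligands, 69 genes were measured, with a median of -0.0022. Past 1.2-fold, 4 were lower (5.80%, against 1.53% of all measured genes) and 1 higher (1.45%, against 1.39%). The 4 are Tpbg, Fzd7, Sfrp1 and Prickle1, and the 1 is Porcn.

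**Figure D3:**
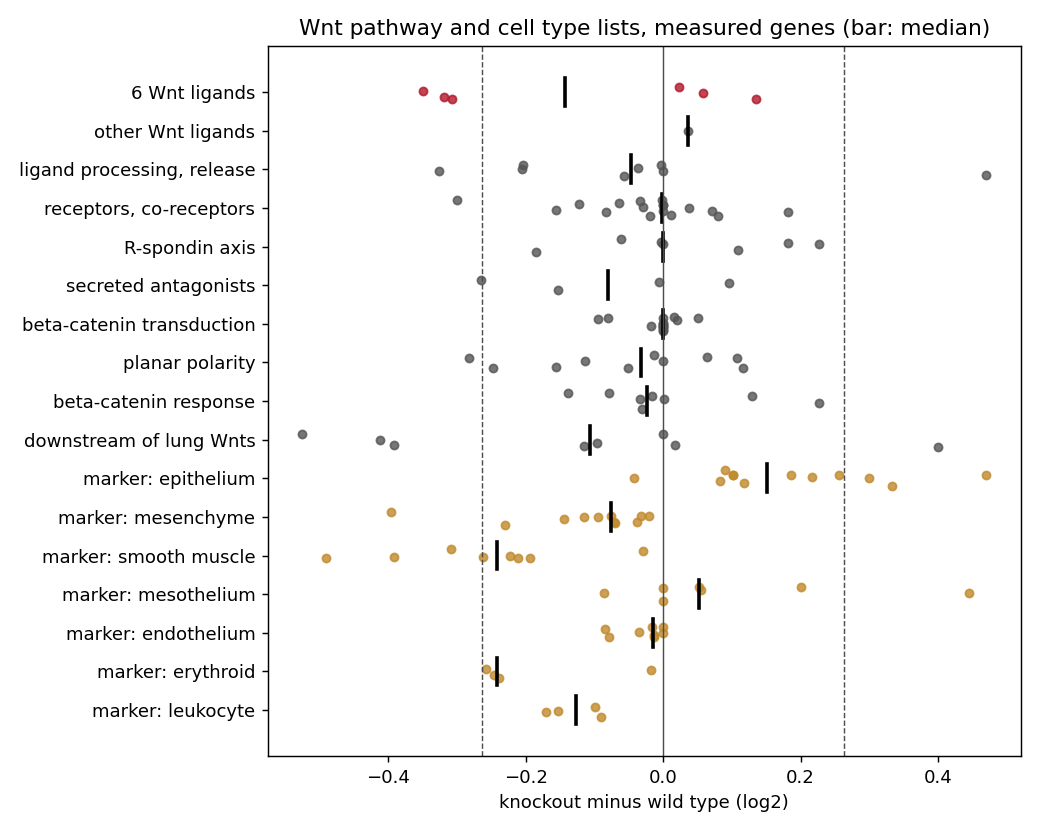
Difference between knockout and wild type pools (log2, horizontal axis) of every measured gene of each list, 1 point per gene, with the list median as a black bar and dashed lines at 1.2-fold. The ligands (red) form 2 clusters. Most Wnt pathway lists (grey) centre near 0, while the secreted antagonists (-0.08) and the genes downstream of lung Wnts (-0.11) have lower medians. Cell type lists (ochre) include the higher epithelial and lower smooth muscle markers.

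Genes tied to these ligands in the mouse lung included some of the larger differences. Of 8 listed and measured, 3 were lower and 1 higher past 1.2-fold, with a median of -0.11, where 1.53% of all measured genes were lower and 1.39% higher by as much. With these genes added, the pathway lists had 2 higher and 7 lower of 77 measured. Several belong equally to Hedgehog and FGF signalling, and earlier results on some were known when the list was made. Tnc, which encodes the matrix protein tenascin C and lies downstream of Wnt7b in vascular smooth muscle, was at 9.35 in the knockout pool and 9.88 in the wild type pool (-0.53, 1.44-fold lower). Its value was thus lower while Wnt7b was slightly higher.

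Myocd, the smooth muscle coactivator that depends on Wnt2 in the mouse lung, was at 10.06 in the knockout pool and 10.45 in the wild type pool (-0.39), the same direction as Wnt2. Shh, whose expression changes with Wnt5a dosage, was at 9.11 in the knockout pool and 9.52 in the wild type pool (-0.41). Fgf10, the mesenchymal growth factor of bud outgrowth, was at 10.24 in the knockout pool and 9.84 in the wild type pool (0.40). Its direction was opposite to that of Shh, Myocd and Wnt2. The remaining members, named after their values were seen, were within 1.2-fold. Pdgfra (-0.11) and Pdgfrb (-0.10) are receptors tied to Wnt7b and tenascin C. Mrtfb, a partner of Myocd, differed by 0.02 and so was not lower with Wnt2 and Myocd. Bmp4 was exactly equal on both arrays, as were 27.3% of measured genes.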

How the data were processed

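Per the labels, biotin-labelled total RNA, pooled from 3 samples per genotype, was read on Affymetrix arrays. The authors deposited a single value for each probe set and pool, taken here as log2 from the range (2.69 to 14.4 for knockout, 2.72 to 14.4 for wild type). Log base, summary method, normalization and build are not given in the sources used here. Values were used as deposited. Of 35557 probe sets, 21789 had 1 gene symbol in the platform annotation, 1621 several and 12147 none, and 21698 were found in RefSeq (GRCm38.p6) with 0 renamed.

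The ligands, gene lists, the 1.2-fold threshold and the rule for named genes were chosen with earlier results of these data known, and the motifs after the promoters were seen. The rule names all ligands, measured other Wnt genes, and per list measured genes past 1.2-fold (at most 5), otherwise the 2 furthest from 0. A few list genes were unmatched or are not reported here. Alternatives were 3 scalings (equal medians, quantile, loess with span 0.3), the mean over probe sets, a floor at the 25th percentile, other filters and thresholds. The number of arrays limits precision. Counting steps were tested on simulated data with planted changes larger than those of the ligands, which checks the code alone and not the calls reported here. Python 3.11.15, numpy 2.4.6, pandas 2.3.3, statsmodels 0.14.6 and matplotlib 3.10.9 were used.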

Additional observations from a re-analysis of the deposited data

How the results depend on the processing

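Under 3 other scalings, the mean over probe sets and the floor at the 25th percentile no ligand changed sign. Wnt2 lay between -0.31 and -0.28, Wnt2b between -0.32 and -0.30, Wnt5a between -0.35 and -0.33, Wnt7b between 0.13 and 0.16 and Wnt11 between 0.06 and 0.08, and the gap between Wnt7b and the mean of the other 5 between 0.29 and 0.32. Wnt4 moved more, to 0.12 with the mean over its probe sets and 0.21 on the dimmer one alone, a setting added after the data were seen, and was between 0.02 and 0.04 under the scalings. The median of the ligands was -0.31 with the mean over probe sets and with a filter at the 75th percentile, and between -0.14 and -0.12 otherwise. Of the 3 lower ligands 1 was left by a filter at the 75th percentile, Wnt2, and 0 at 1.5-fold and at 2-fold. Over the pathway lists, downstream genes included, the 2 higher genes became 4 without a filter, and at 1.5-fold and 2-fold 0 were higher and 0 lower. These follow from the number of genes kept or the threshold itself. The 7 lower pathway genes were 6 under each of the 3 scalings, Sfrp1 being the one lost. With the floor Xist differed by -6.19. Scaling moved the median of measured genes by at most 0.017. No paired analysis was possible because each genotype had 1 array, and for that reason no array could be left out.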

Other observations

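Among Wnt antagonists under the level limit, and named after their values were seen, Sfrp5 stood at 6.37 in the knockout pool and 5.98 in the wild type pool (0.39), and Dkk1 at 7.44 in the knockout pool and 7.17 in the wild type pool (0.27). Both encode secreted inhibitors of Wnt signalling. They are the 2 furthest from 0 of 9 antagonists under the limit, of which 4 were higher, 0 lower and 5 exactly equal on both arrays. The response gene Sp5, also under the limit, was at 7.28 in the knockout pool and 7.53 in the wild type pool (-0.25). These values are dim and rest on 1 array each.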
